A study of Leptinotarsa decemlineata with 61 samples.

Results

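Malpighian tubules and the midgut of adult Colorado potato beetles (Leptinotarsa decemlineata) were compared over 12 RNA-seq libraries, 6 of each tissue, out of 61 libraries of 21 sample types. The 6 tubule libraries are females 1, 2 and 3 and males 3, 4 and 5, and the 6 midgut libraries are females 2, 3 and 4 and males 2, 4 and 5. The numbers are those of the sample titles. The libraries were assigned by title and library name, because the tissue field of the labels names another sample type for most samples. All beetles were untreated wild-type adults of strain E06, reared on potato leaves and dissected 7 days after emergence. Each library came from a single individual, and each library is therefore 1 biological replicate. The labels do not say whether tubules and midgut were taken from the same beetles. Between 13502057 and 16085250 read pairs per library fell on the 15578 deposited genes.

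The midgut is where an insect digests and absorbs its food, and its epithelium secretes digestive enzymes and is the first tissue to meet the defence compounds of the plant. Malpighian tubules are blind-ended tubes that open into the gut at the junction of midgut and hindgut. They secrete the primary urine by active ion transport, excrete nitrogenous waste and clear foreign compounds. The files do not pair the gene identifiers with names, and 0 of the 15578 identifiers matched the RefSeq gene table used here. The roles of single genes are therefore not given, and genes are described by identifier, position and structure. Coordinates are those of the deposited table. The study cites a published chromosome-level assembly for its mapping, but neither the labels nor the methods give a build name.

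The expression level is given as TPM, read pairs per gene corrected for gene length and scaled to a fixed total per library. It is a share of the transcripts, so that abundant genes of one tissue lower the values of all its other genes. Differences are tubules minus midgut on the log2(TPM + 1) scale, which understates the change of genes with low values. They were estimated with limma and sex as a covariate for the 10260 genes above 1 TPM in at least 2 of the 12 libraries, and p-values were adjusted by the Benjamini-Hochberg method over these genes.

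The tissue labels were checked with genes chosen from other libraries. For this, 27 genes had at least 10 TPM in every midgut library of last instar (L4) larvae and under 1 TPM in every library of 7 other tissues. In the adult midgut their summed level was between 516 and 7640 TPM, and 21 to 23 of them reached 1 TPM. In the tubules the sum was between 0.975 and 6.65 TPM, with 21 to 23 of the 27 genes at 0. The sums of 344 testis genes (at most 208 TPM), 74 ovary genes (at most 11.1 TPM) and 5 hemolymph genes (at most 3.16 TPM) were low in all 12 libraries against 40983, 18348 and 125 TPM in their own tissues. No gene met the same rule for fat body. With medians in place of every library, a rule chosen after the data were seen, 3 fat body genes were found. They summed to 6.61 TPM in tubules of female 3 and to at most 0.601 TPM in the other 11 libraries, against a median of 35.6 TPM in fat body. The part of fat body RNA in the results was not tested, and the values below that move without this library are given beside them.

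The 2 tissues were far apart. Over all 15578 genes the mean Euclidean distance on the log2(TPM + 1) scale was 244.6 ± 7.88 (SD over pairs of libraries) between a tubule and a midgut library, and 82.5 ± 17.9 between libraries of one tissue. Tubule libraries lay 69.6 to 118.7 from each other, midgut libraries 54.9 to 96.2, and no pair across the tissues was closer than 227.0. The excess of 162.1 gave p = 0.005 in an exact one-sided permutation test with tissue labels permuted within each sex (400 splits), the smallest p that this design allows.

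At the level of single genes, 8222 of the 10260 tested genes differed between the tissues, or 80.1%. Of these, 6804 (66.3%) were higher in the tubules and 1418 (13.8%) in the midgut. This split depends on the scaling. The median difference over all tested genes was 0.89 towards the tubules, and 7198 genes (70.2%) lay within 1 of that median. When median-of-ratios factors were used to rescale the 12 libraries, the median was 0.04, and 6083 genes (59.3%) differed, 2914 (28.4%) higher in the tubules and 3169 (30.9%) higher in the midgut. Under both scalings 811 genes were called with opposite signs. The values of all 6 libraries of one tissue lay above all 6 of the other for 6173 genes (60.2%) as deposited, of which 5176 (50.4%) were higher in the tubules and 997 (9.72%) in the midgut, and for 4066 (39.6%) after rescaling.

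Differences of at least 3 on the log2 scale, which is 8-fold on the pseudocount scale, were found for 443 called genes in the tubules (4.32%) and 522 in the midgut (5.09%). After rescaling, these counts were 290 (2.83%) and 654 (6.37%). The genes that passed under both scalings are described below as the tubule set, with 290 genes (2.83%), and the midgut set, with 522 genes (5.09%). They were defined after the data were seen. In the tubule set the libraries of the tissues did not overlap for 284 of 290 genes, and in the midgut set for 503 of 522. The sets were chosen by large differences in these same libraries, so this is no separate evidence for them. Differences of 10 or more were found for 11 tubule genes and 71 midgut genes.

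**Figure D1:**
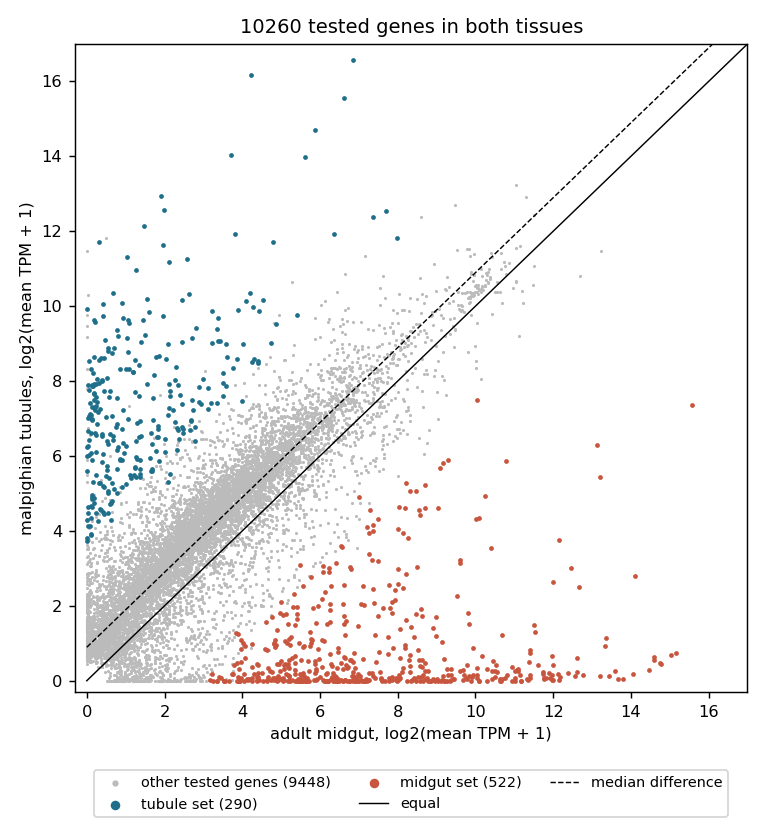
Mean expression of the 10260 tested genes in adult midgut (horizontal) and malpighian tubules (vertical), each as log2(mean TPM + 1). The solid line marks equal values and the dashed line the median difference of 0.89. The 290 genes of the tubule set (blue) and the 522 of the midgut set (red) lie on both sides of a dense band, and the band itself follows the dashed line.

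The 2 sets held a large part of the transcripts of their tissue. The midgut set took 65.7% ± 4.35 (SD, n = 6) of the TPM in the midgut and 0.166% ± 0.0365 in the tubules. The tubule set took 40.6% ± 5.47 of the TPM in the tubules and 0.193% ± 0.121 in the midgut. The low share of each set in the other tissue follows in part from the choice of the sets in these same libraries. Counted in read pairs, which are not corrected for gene length, the shares in their own tissue were 54.4% ± 5.50 for the midgut set and 34.4% ± 3.05 for the tubule set. In the midgut set 88 genes had a median of at least 1000 TPM in the midgut. In the tubule set 28 genes had such a median in the tubules. All 6 tubule libraries were listed at 0 for 89 genes of the midgut set, whereas all 6 midgut libraries were at 0 for 3 genes of the tubule set.

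The low share of the tubule set in the midgut was not the same in all libraries. It was 0.0676%, 0.110% and 0.130% at its lowest, median and highest in females, and 0.164%, 0.324% and 0.361% in males. The male libraries 2 and 5 were the highest of the 6, and the values of both sexes did not overlap. The source of this signal was not tested.

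The share of TPM in the 10 most abundant genes was 31.8% ± 5.78 in the tubules and 28.5% ± 3.57 in the midgut. This difference of 3.31 percentage points did not pass an exact two-sided permutation test (p = 0.268, n = 6 against 6). The order of the tissues differed by sex. In females the share was 27.2% ± 0.855 in the tubules and 31.4% ± 1.35 in the midgut, and in males 36.4% ± 4.32 and 25.6% ± 2.10. Within each sex the tissues did not overlap, and 3 against 3 libraries cannot give an exact p below 0.1. With the 100 most abundant genes the order turned, at 52.9% ± 3.51 in the tubules and 62.9% ± 4.26 in the midgut (exact permutation p = 0.00433, two-sided). The 10 genes with the highest mean in each tissue had no gene in common. All 10 of the midgut list and 7 of the 10 of the tubule list belonged to the sets described above.

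More genes were above 1 TPM in the tubules, with 8747 ± 154 (SD, n = 6) against 8325 ± 357 in the midgut (exact permutation p = 0.026, two-sided). In females the difference was 808 genes, and in males 36.3 genes, with 8642 to 8664 in tubules and 8616 ± 221 in midgut. Without tubules of female 2 or of female 3 the p over all libraries rose to 0.0628 and 0.0606. At a minimum of 10 TPM the difference was larger, with 5453 ± 141 genes in the tubules and 3932 ± 348 in the midgut (exact permutation p = 0.00216, the smallest this design allows). These counts used the TPM as deposited and depend on the scaling. The median-of-ratios factors, by which the TPM are divided, were 0.578 to 0.868 in the midgut and 1.29 to 1.64 in the tubules. Whether the differences in counts remain after rescaling was not tested.

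Among the genes highest in the tubules, 2 lie near each other on chromosome 1 and are named here by rule. LdNA_2239 had the largest difference of all genes higher in the tubules. It is a gene of 2 exons with 237 bp of exon sequence on the minus strand (chr1:47635657-47636755). Its TPM was 52530, 62521 and 38523 in tubules of females 1, 2 and 3, and 56162, 128854 and 102045 in tubules of males 3, 4 and 5. In the midgut it was 0.616 in female 2, 105.5 in male 2, and listed with 0 read pairs in the other 4 libraries, which allows up to 0.866 TPM. All tubule libraries lay far above all midgut libraries. The mean was 73439 ± 34534 TPM against 17.7 ± 43.0, a difference of 14.80 (SE 0.95, limma adjusted p = 2.6e-08).

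LdNA_2241 had the highest mean of all such genes. It also has 2 exons and 237 bp of exon sequence on the minus strand (chr1:47670890-47672959). In tubules of females 1, 2 and 3 its TPM was 67168, 74918 and 85488, and in tubules of males 3, 4 and 5 it was 114550, 131149 and 112121. The tubules of the 3 males were thus all above those of the 3 females. In the midgut it was 0.308, 0.824 and 0.863 TPM in females 2, 3 and 4, and 345, 12.3 and 329 TPM in males 2, 4 and 5. Here too the male libraries 2 and 5 stood above the rest, at a level far below that of any tubule library. The tissue difference was 12.75 (SE 1.02, limma adjusted p = 2.0e-07).

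In the midgut, LdNA_10678 on chromosome 5 had the largest difference (chr5:28722878-28725690, minus strand, 3 exons, 470 bp). Its TPM was between 31924 and 42124 in the 6 midgut libraries. In the tubules it was 0, 0.389 and 0.201 in females 1, 2 and 3, and 3.49, 0 and 0 in males 3, 4 and 5. A count of 0 read pairs allows up to 0.593 TPM here. The difference was -14.68 (SE 0.32, limma adjusted p = 4.7e-13). The neighbouring LdNA_10677 had the highest mean of the midgut genes (chr5:28715410-28717971, minus strand, 3 exons, 378 bp), with 44597 to 53135 TPM in the midgut. It was not absent from the tubules, where it had 72.7, 79.7 and 217 TPM in females and 188, 355 and 71.3 TPM in males. The difference was -8.48 (SE 0.37, limma adjusted p = 5.0e-10). None of these 4 genes overlaps another deposited gene.

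**Figure D2:**
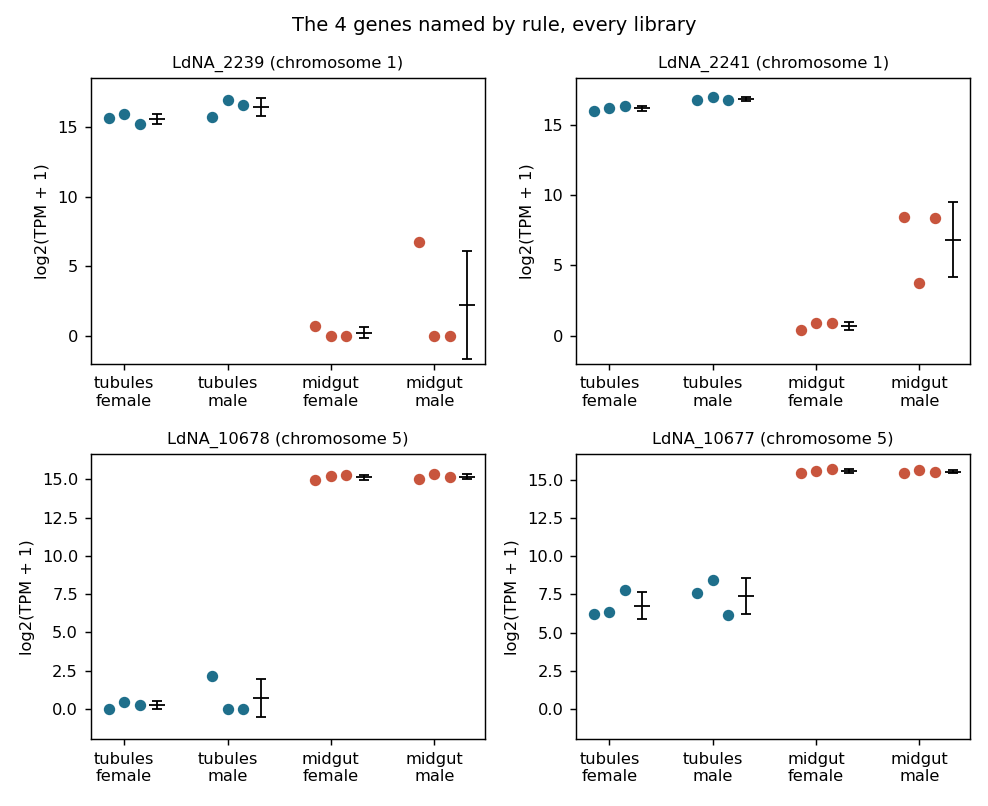
TPM of LdNA_2239, LdNA_2241, LdNA_10678 and LdNA_10677 in every library, as log2(TPM + 1). Points are libraries in the order of their replicate numbers, and the bars to the right of each group are the mean ± SD (n = 3). The tissues do not overlap for any of the 4 genes, and the spread is largest where the gene is low, as in male midgut on chromosome 1.

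The tubule genes on chromosome 1 form a locus of abundant genes, examined after their values were seen. Another gene of 2 exons and 237 bp starts at position 47585047 on the same strand and had 48284 ± 8988 TPM in the tubules and 97.9 ± 133 TPM in the midgut. Its TPM was 40552, 41059 and 44650 in females and 57696, 61477 and 44269 in males. Together the 3 genes took 21.9% ± 6.29 of the TPM in the tubules, with 16.9% ± 0.914 in females and 27.0% ± 4.75 in males, and all males were above all females. In the midgut they took 0.0230% ± 0.0332. Because the genes are short, the same reads made up only 4.08% ± 1.43 of the read pairs of the tubules, so that the TPM share of these genes rests strongly on the length correction.

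Of the sum of the 3 genes in the tubules, the first gene took 22.7% ± 3.78, the second (LdNA_2239) 32.5% ± 7.33 and the third (LdNA_2241) 44.8% ± 4.42. The lowest share of LdNA_2239 in any tubule library was 22.8%. The proportions were not the same in other samples. In midgut of male 5, LdNA_2241 had 329 TPM and LdNA_2239 was listed at 0. In fertilized eggs LdNA_2239 was between 142 and 1129 TPM over 3 libraries, whereas LdNA_2241 was between 1.10 and 5.68 TPM. The sequences of these genes were not used here. Short genes of equal length lying side by side may share reads, so the division of reads between them is uncertain.

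The same locus holds 2 longer tubule genes and 3 short midgut genes. The gene at 47856418 (4 exons, 2334 bp) had 7827 ± 3347 TPM in the tubules, between 4665 and 12468, and at most 13.8 TPM in the midgut. The gene at 47918040 (3 exons, 3957 bp) had 26885 ± 4209 TPM in the tubules, between 21140 and 32632, and at most 190 TPM in the midgut. With these, the 5 tubule genes of the locus took 25.4% ± 6.87 of the TPM and 13.8% ± 3.55 of the read pairs of the tubules. On either side of the 2 longer genes lie genes of 267, 264 and 213 bp, starting at 47807346, 47822254 and 47943299, that were higher in the midgut. They had 2901 ± 1580, 1607 ± 2810 and 4552 ± 2125 TPM there and 1.79 ± 2.14, 0 and 12.4 ± 12.8 TPM in the tubules. The mean of the gene at 47822254 rested on midgut of male 2, at 7120 TPM, and without it the mean of the other 5 libraries was 504 ± 867 TPM, with a lowest value of 7.65 TPM.

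**Figure D3:**
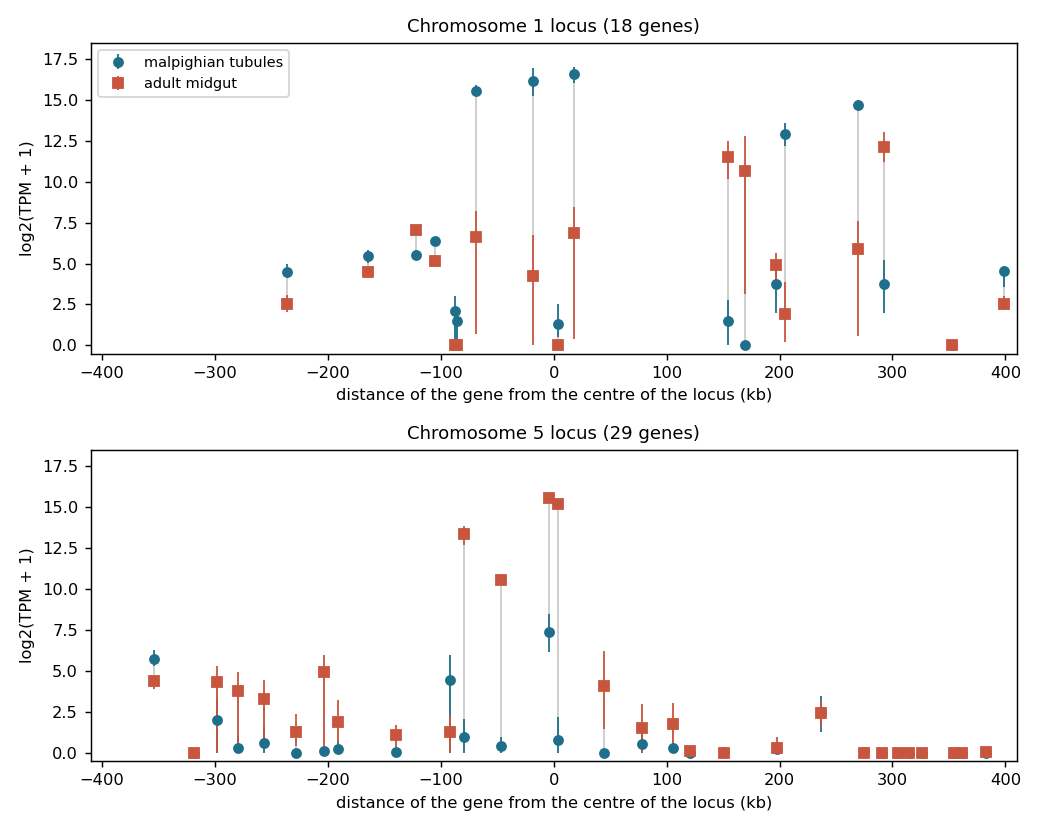
Expression in tubules (blue circles) and adult midgut (red squares) of all deposited genes within 400 kb of the centre of the chromosome 1 and chromosome 5 loci, as log2(mean TPM + 1) against the distance from the centre in kb. Error bars span the lowest and highest of 6 libraries. The 5 abundant tubule genes and 3 midgut genes lie among each other on chromosome 1, whereas on chromosome 5 the 4 abundant genes are all midgut genes.

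Other genes of the 10 most abundant in the tubules were single. On chromosome 6, a gene of 7 exons and 2360 bp starting at 41595041 had between 12795 and 22620 TPM in the tubules and 12.2 ± 16.1 TPM in the midgut. Also on chromosome 6, a gene of 13 exons and 3118 bp starting at 1499753 had between 11185 and 24308 TPM in the tubules and 48.2 ± 51.6 TPM in the midgut. The differences were 11.13 (SE 0.55, limma adjusted p = 1.9e-09) and 9.02 (SE 0.56, limma adjusted p = 1.9e-08). For both genes the male midgut libraries 2 and 5 were the highest of the midgut, and no library of one tissue came near the other. The rest of the 10 were also abundant in the midgut. Genes on chromosomes 18, 1 and 2 (starts 22250300, 5796082 and 71779817) had means of 9620, 7759 and 6655 TPM in the tubules. In the midgut their means were 2119, 2538 and 707 TPM.

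Of the 10 most abundant genes of the midgut, 8 lay in runs of at least 3 neighbours of the midgut set. The other 2, on chromosome 2 (start 52832295) and chromosome 18 (start 20005071), did not. On chromosome 5, 4 consecutive deposited genes between 28637482 and 28725690, all on the minus strand and between 378 and 504 bp long, summed to 97351 ± 7256 TPM in the midgut and 166 ± 113 TPM in the tubules. LdNA_10677 gave nearly all of the tubule value. A second run of 4 genes on the minus strand of chromosome 5, between 11820366 and 11926539, summed to 78572 ± 17309 TPM in the midgut and 1.14 ± 2.43 TPM in the tubules. The 8 genes of both runs took 17.6% ± 1.94 of the TPM and 10.9% ± 1.60 of the read pairs of the adult midgut.

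These runs were much lower in the midgut of L4 larvae. There the 8 genes took 0.398%, 0.539% and 2.999% of the TPM in the 3 libraries. The first run had between 3627 and 3889 TPM in the larvae, and its 2 most abundant adult genes were almost unread: LdNA_10678 was at 0 in all 3 larval libraries and LdNA_10677 between 0.232 and 0.696 TPM. The second run varied widely among the larvae, from 351 to 26094 TPM.

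Neighbours of the same set were common in both tissues. Of the genes next to a midgut set gene along a chromosome, 30.3% were in the midgut set too, against 5.09% of all tested genes. Next to a tubule set gene, 14.9% were in the tubule set, against 2.83% of all tested genes. In the midgut set, 249 of 522 genes (47.7%) lay in 91 runs of at least 2 consecutive tested genes, and 147 genes lay in 40 runs of at least 3. In the tubule set, 77 of 290 genes (26.6%) lay in 34 runs of at least 2, and 25 genes in 8 runs of at least 3. Neighbours that arose by duplication can share reads, so the genes of a run are not independent measurements.

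The longest midgut run held 7 genes of 621 to 838 bp on chromosome 8, between 40593650 and 40842583. Its sum was 17864 ± 3584 TPM in the midgut, 8.78 ± 10.2 TPM in the tubules and between 3161 and 4411 TPM in the 3 L4 midgut libraries. On chromosome 16, 5 genes between 23039133 and 23076441 summed to 27644 ± 7451 TPM in the midgut and 11.9 ± 15.4 TPM in the tubules. On chromosome 18, 5 genes between 21092348 and 21161116, all on the minus strand, summed to 13592 ± 1010 TPM in the midgut, 1.14 ± 0.605 TPM in the tubules and between 113 and 622 TPM in L4 midgut. A run of 6 genes on chromosome 9, between 25794458 and 26265317, was the least abundant of these, with 346 ± 69.2 TPM in the midgut and 0.0362 ± 0.0255 TPM in the tubules.

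Not every midgut run was lower in the larvae. A run of 4 short genes on chromosome 13, starting at 3848146, had a mean sum of 5381 TPM in adult midgut and between 16617 and 40636 TPM in the 3 L4 midgut libraries. A run of 3 genes on chromosome 17, starting at 4140260, had 14157 TPM in adult midgut and between 30699 and 47607 TPM in L4 midgut. By contrast, a run of 3 genes on chromosome 2 starting at 52867394 had 15121 TPM in adult midgut and at most 0.548 TPM in any L4 midgut library. A run of 4 genes on chromosome 10, starting at 51078859, had 749 ± 424 TPM in adult midgut, between 445 and 1552. In 5 adult hindgut libraries this run had between 26430 and 39998 TPM. Its first gene had 595 ± 400 TPM in midgut of males and 0.963 ± 0.130 TPM in midgut of females, and is described below.

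The longest tubule run held 4 genes on chromosome 4, between 49229561 and 49378233. Its sum was 2255 TPM in the tubules, 8.41 TPM in the midgut and between 81.0 and 410 TPM in 5 adult hindgut libraries. A run of 3 genes on chromosome 5, starting at 20004088, was higher, with 3593 TPM in the tubules and 41.7 TPM in the midgut. On chromosome 18 a run of 3 genes starting at 22747244 had 1145 TPM in the tubules and 1.18 TPM in the midgut.

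The median length of the genes was 1593 bp in the tubule set, 1164 bp in the midgut set and 1473 bp over all tested genes. Genes of 1 exon made up 4.48%, 5.17% and 10.5%, respectively. Between 0.935% (chromosome 17) and 5.15% (chromosome 18) of the tested genes of a chromosome were in the tubule set, and between 0.954% (chromosome 6) and 9.56% (chromosome 18) in the midgut set.

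With a stricter rule, 72 genes had at least 10 TPM in all 6 tubule libraries and under 1 TPM in all 6 midgut libraries (0.702% of the tested genes), and 257 genes met the opposite rule for the midgut (2.50%). These 257 genes took between 21.5% and 30.3% of the TPM of a midgut library, and the 72 genes between 0.978% and 1.88% of a tubule library. With a minimum of 100 TPM, 21 tubule genes and 127 midgut genes remained. When the rule was applied to the medians of the 6 libraries in place of every library, 205 tubule genes and 412 midgut genes passed.

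The levels of the sets in the rest of the atlas were not used to choose them. Most of the midgut set was also read in the larval midgut, where 401 of 522 genes (76.8%) had a median of at least 10 TPM. Of all tested genes, 54.5% reached that level. The midgut set took 33.8% to 41.9% of the TPM of the larval midgut. Of the 522 genes, 158 were within 1 of the adult level on the log2 scale, 138 were at least 3 below it and 12 at least 3 above it, and 38 had a median under 1 TPM in the larvae. These counts used the TPM as deposited and depend on the scaling. The median of all tested genes was 3.71 on the log2 scale in L4 midgut and 2.74 in adult midgut. L4 midgut was the highest other dissected sample type for 369 of the 522 genes. In whole larvae of the instars L1, L2 and L3, 428 (82.0%), 413 (79.1%) and 385 genes (73.8%) reached 10 TPM. Of all tested genes, 56.9%, 58.2% and 50.7% did. In fertilized eggs 109 genes of the set (20.9%) reached 10 TPM, against 62.8% of all tested genes. In adult hindgut 104 genes (19.9%) did, against 61.2% of all tested genes, and in L4 hindgut 75 genes (14.4%), against 59.5%. The midgut set took 6.96% to 18.3% of the TPM in 5 adult hindgut libraries and 10.9% to 14.9% in 3 L4 hindgut libraries.

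The tubule set was read most often in the hindgut among the other dissected tissues. A median of at least 10 TPM was found for 175 of 290 genes (60.3%) in adult hindgut and for 182 (62.8%) in L4 hindgut. It was found for 78 (26.9%) in L4 midgut and 76 (26.2%) in adult fat body. Of all tested genes, 61.2% reached this level in adult hindgut and 59.5% in L4 hindgut, near the shares of the tubule set. In L4 midgut and adult fat body, 54.5% and 40.3% of all tested genes reached it. Adult or L4 hindgut was the highest other dissected sample type for 82 and 104 of the 290 genes. The level was low, and the set took 3.46% to 5.43% of the TPM in 5 adult hindgut libraries. The study removed a female hindgut library from its atlas and did not give its number. Hindgut of female 5 was taken to be that library, from earlier results of these data, and is left out of all hindgut values here. The tubule set took 2.57% of its TPM and the midgut set 43.0%. The L4 yellow fat body library taken in the same way to be that removed by the study is left out as well. LdNA_2239 ranged from 0 to 5677 TPM among the 3 hindgut libraries of males, so single hindgut libraries differed widely. Tubule RNA in a hindgut dissection, or hindgut RNA in a tubule dissection, cannot be told apart here from expression in both tissues. For 5 genes chosen as hindgut markers from libraries outside the 12, the sum was 1429 to 2529 TPM in the tubules, above the median of 387 TPM in hindgut itself, and 3 of the 5 were above 1 TPM in every tubule library. In the midgut the sum was at most 8.39 TPM.

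The median level of the tubule set was above that of every other dissected sample type for 210 of 290 genes, and at least 8 times as high for 96. For the midgut set these counts were 294 and 118 of 522, and in 155 of the remaining 228 genes L4 midgut was the highest. The level in the own tissue comes from the libraries by which the sets were chosen, so its high rank is partly built in. The share over all tested genes was not computed. In whole L1, L2 and L3 larvae, 186 (64.1%), 199 (68.6%) and 170 genes (58.6%) of the tubule set reached 10 TPM. Of all tested genes, 56.9%, 58.2% and 50.7% did.

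**Figure D4:**
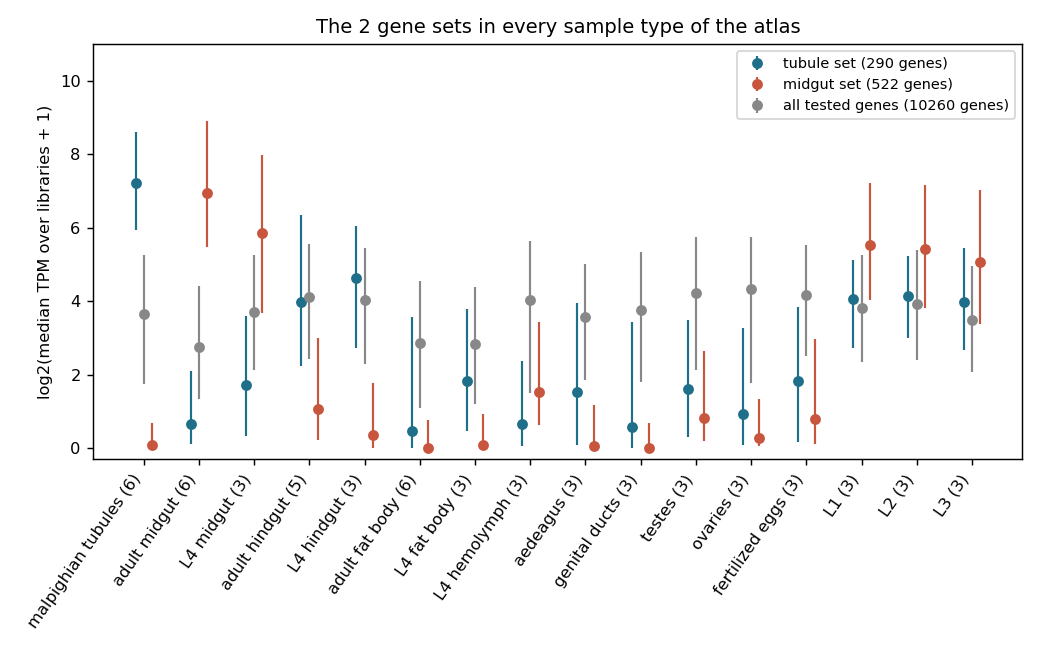
Level of the tubule set (blue), the midgut set (red) and all tested genes (grey) in each sample type, with the number of libraries in parentheses. Points are the median over genes of log2(median TPM over libraries + 1) and bars the middle 50% of genes. The midgut set is high in adult midgut, L4 midgut and whole larvae, and the tubule set lies nearest to all tested genes in hindgut and whole larvae.

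Whether the tissue difference was the same in both sexes was tested by the interaction of sex and tissue. It passed for 98 of 10260 genes (0.955%), and 2064 genes (20.1%) had an unadjusted p below 0.05. The difference of tubules over midgut was higher in females for 80 of the 98 genes and higher in males for 18. The median interaction over all tested genes was -0.40, and after rescaling the split was 55 to 31, with 66 of the 98 genes called again. For 33 genes the sign of the tissue difference was opposite in females and males. The count of 98 depended on single libraries. It was 49 without tubules of male 4, 56, 55 and 65 without midgut of females 2, 3 or 4, 160 without midgut of male 4 and 224 without tubules of male 5.

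The interaction passed for 14 of 290 genes of the tubule set (4.83%) and 7 of 522 genes of the midgut set (1.34%), against 0.955% of all tested genes.

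The gene with the smallest p for the interaction was LdNA_19137 on chromosome 9 (chr9:39125406-39159556, minus strand, 5 exons, 996 bp). Its span overlaps those of 2 other deposited genes, and strand was not used in counting. Whether their exons overlap was not examined, so some of its reads may belong to them. Its TPM was 75.3, 45.5 and 60.0 in tubules of females and 0, 0 and 0.0841 in tubules of males. In the midgut it was at 0 in all 3 females, which allows up to 0.220 TPM, and 0.260 ± 0.132 TPM in males. The tubules of females were thus the only one of the 4 groups with a level above 1 TPM. The interaction was -6.20 (SE 0.28, limma adjusted p = 2.2e-06). A gene of 909 bp inside its span, starting at 39156639, had 10.3 ± 2.79 TPM in tubules of females and at most 0.268 TPM in the other libraries.

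The 3 genes with an interaction of 8 or more in size, singled out after their values were seen, were each high in the males of one tissue. On chromosome 10, a gene of 6 exons and 2287 bp (chr10:47696888-47710073) had 2183, 5226 and 6583 TPM in tubules of males 3, 4 and 5, and between 0.0826 and 1.30 TPM in tubules of females. In the midgut it had 11.2 and 8.71 TPM in males 2 and 5 and at most 0.0319 TPM elsewhere. The interaction was 9.23 (SE 1.12, limma adjusted p = 0.00301). These are again the 2 midgut libraries with the highest share of the tubule set.

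The other 2 genes were high in the midgut of males. One lies on chromosome 10 (chr10:51078859-51082869, 4 exons, 477 bp) and had 1050, 440 and 295 TPM in midgut of males 2, 4 and 5, against 0.963 ± 0.130 TPM in midgut of females. In the tubules it had 2.13 ± 0.854 TPM in females and 2.07 ± 0.602 TPM in males. The other lies on chromosome 11 (chr11:43553562-43554740, 3 exons, 927 bp) and had 1651, 320 and 276 TPM in midgut of males, 0 in midgut of all females and at most 1.32 TPM in the tubules. The interactions were -8.05 (SE 0.55, limma adjusted p = 3.7e-05) and -8.45 (SE 0.80, limma adjusted p = 0.000585).

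**Figure D5:**
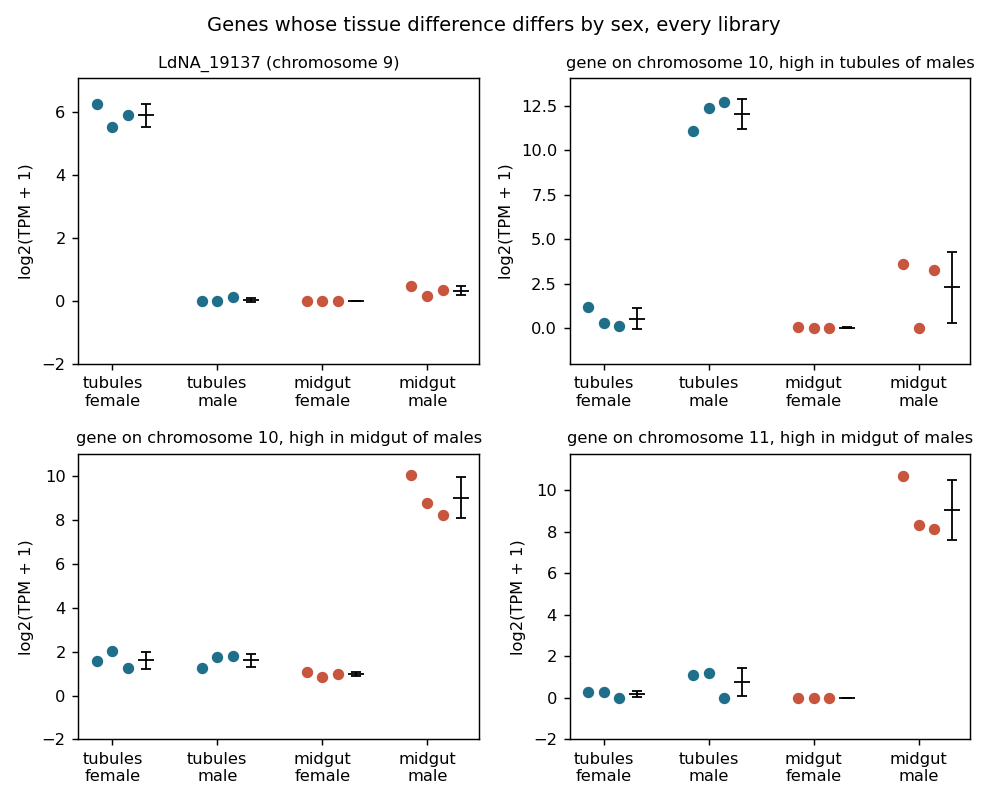
TPM of 4 genes whose tissue difference differed between the sexes, as log2(TPM + 1), in every library. Points are libraries in the order of their replicate numbers, and the bars are the mean ± SD (n = 3). In each panel 1 of the 4 groups stands above the other 3: tubules of females for LdNA_19137, tubules of males for the first gene on chromosome 10, and midgut of males for the other 2 genes.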

How the data were processed

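The deposited table gives TPM for 15578 genes with position and gene length. Per the study's methods, the authors trimmed reads with Trimmomatic (10 bases from the read start, minimum length 36), used STAR for the alignment and featureCounts (Subread 2.0.5 in the submitters' processing notes) to count the read pairs of each gene, converted the counts to TPM and kept genes above 1 TPM in at least 2 libraries. The deposited TPM values were used as they are. Libraries were non-directional and strand was not used, so overlapping genes are uncertain. Multiplying TPM by the deposited gene length (in bp) and dividing by the smallest step of each library gave whole read pairs within 0.01 for 100% of values. No column was left unmapped (0 columns), and no libraries were duplicates.

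Genes above 1 TPM in at least 2 of the 12 libraries were tested with limma 3.58.1 (R 4.3.3, empirical Bayes with trend) on log2(TPM + 1) with sex as covariate, at a Benjamini-Hochberg threshold of 0.05. The interaction model added sex by tissue. Single values used exact permutation tests. The fits were tested on simulated data. Where 0 read pairs were counted, 3 pairs were taken as the upper limit, which covers counting error only. Named genes were, in each direction, that with the largest difference and that with the highest mean among called genes without overlap, and for the interaction that with the smallest p. The comparison, gene sets and lists were chosen with earlier results of these data known. Alternatives covered the pseudocount, scaling, filters, samples in the fit, voom on recovered read pairs, the replicate number as a block, and the omission of each library. Coordinates are those of the table.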

Additional observations from a re-analysis of the deposited data

Results flagged for a closer look

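Of 38 groups of 6 libraries examined, 7 held a library far from the others. Chance gives about 1 in 20 for normally distributed values, which levels near 0 are not, so the number of such groups is a description only. LdNA_2239 was at 105.5 TPM in midgut of male 2, against at most 0.616 TPM in the other 5 midgut libraries. LdNA_10678 was at 3.49 TPM in tubules of male 3, against at most 0.389 TPM in the other tubule libraries. The summed L4 midgut genes were at 7640 TPM in midgut of male 2 (next 2669 TPM), and the summed adult hindgut genes at 8.39 TPM in the same library (next 2.92 TPM). The adult hindgut genes do not mark hindgut alone, as they summed to 1429 to 2529 TPM in the tubules, above the median of 387 TPM in hindgut. The summed testis genes were at 207.6 TPM in midgut of male 4 (next 24.8 TPM), where 2 of the 344 genes reached 1 TPM. The summed aedeagus genes were at 0.183 TPM in midgut of male 5 and at 0 in the other 5, where any value above 0 stands apart. The 3 fat body genes summed to 6.61 TPM in tubules of female 3 (next 0.601 TPM).

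The tissue difference differed between the sexes, by the limma test of the interaction, for the genes described in the report. The interaction was -6.20 for LdNA_19137, -3.69 for the gene within its span on chromosome 9, 9.23 and -8.05 for the genes on chromosome 10 and -8.45 for the gene on chromosome 11.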

How the results depend on the processing

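The 116 values of the 5 genes named by rule under other settings all kept their direction and stayed past the threshold (highest limma adjusted p 0.000554). Without each library in turn, 7966 to 8267 genes were called, 6545 to 6901 higher in the tubules and 1355 to 1440 in the midgut, with 434 to 466 and 516 to 531 at differences of at least 3. The distance between tissues was 158.1 to 167.0 (exact permutation p = 0.005 throughout), the difference in the 10-gene share 1.40 to 4.42 percentage points, that in genes above 1 TPM 336 to 529, the interaction count 49 to 224, and the genes of one tissue only 329 to 359 (72 to 91 and 257 to 278). Settings that moved counts by over 1.5 times were the scaling (2914 and 3169 genes higher in tubules and midgut, 290 of at least 3 in tubules), the pseudocount of 0.1 (723 of at least 3 in tubules) and voom on read pairs (881 of at least 3 in midgut). Voom with median-of-ratios factors, added after seeing the data, gave 2811, 3178 and 1028. With 100 genes the share difference reversed to -10.05. Genes of one tissue only numbered 148 (21 and 127) at 100 TPM and 617 (205 and 412) by medians.

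The replicate numbers shared by the tissues gave correlations of deviations of -0.05, 0.13, -0.07 and 0.04, of which 1 is above 0.1, and not every library correlated best with its own number. The numbers were therefore not used as pairs, and whether some tissues came from the same beetles is not known. With the replicate block, 7537 genes were called, against 7773 in the same 8 libraries without it. The cause of the other changes was not tested.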
